A study of Mus musculus with 22 samples.

Results

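The genes described here are 40 genes of glycolysis, of the entry of pyruvate into mitochondria and of the reverse route to glucose, chosen by name from the 17931 gene symbols of the testes RNA-seq table. Of these, 6 code for isozymes that are known from male germ cells (Aldoart1, Aldoart2, Gapdhs, Pgk2, Eno4 and Pdha2), and 34 code for the other enzymes and regulators of the same steps. RNA was taken from whole testes of 3 wild-type (WT) mice and 3 MLX KO mice, all aged 7 months and untreated. The WT males were littermates of the MLX KO males, had been shown to be fertile as breeders, and formed 3 pairs with them. The main test of counts used genotype alone, and the pairs were used in other settings. The MLX KO males carried a constitutive, whole-body deletion of Mlx exons 3 to 6, which encode the part of MLX that dimerizes and binds DNA, made by gene targeting in embryonic stem cells. Because the whole animal lacked MLX and the whole testis was sampled, these data do not separate germ cells from Sertoli, Leydig and other cells.

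Glycolysis splits glucose into pyruvate, and the pyruvate dehydrogenase complex then turns pyruvate into acetyl-CoA for the mitochondria. In the testis, Sertoli cells feed lactate to the germ cells of the tubules, while sperm carry much of their glycolytic machinery along the tail and need it to swim. Male germ cells replace several widely expressed enzymes of this pathway by their own isozymes. Some of these are retrogenes, copies without introns made from the messenger RNA of an older gene, and for Pgk2 and Pdha2 the parent gene lies on the X chromosome, which is silenced in meiosis. MLX is a partner of MondoA and ChREBP, transcription factors that respond to glucose-derived sugar phosphates and bind E-box sequences.

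The germ-cell isozymes and their counterparts are told apart by the sequence of the reads, so stretches of coding sequence in which each pair is most alike are shown first. They were read from the GENCODE transcripts of GRCm38, the build to which the authors aligned their reads, and run 5′ to 3′ over 50 bases, the length of 1 read. Capitals mark the bases that differ between the pair. Pgk2, a retrogene of 1 exon at chr17:40207018-40208609, and X-linked Pgk1 at chrX:106187100-106203699 shared 79.3% of their aligned coding bases, and at least 5 bases differed in each aligned window of this length.
Pgk2: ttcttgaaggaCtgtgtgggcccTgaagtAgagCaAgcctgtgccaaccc
Pgk1: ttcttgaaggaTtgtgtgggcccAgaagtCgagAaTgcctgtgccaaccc

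Pdha2, a retrogene of 1 exon at chr3:141210004-141212355, and X-linked Pdha1 at chrX:160122219-160138430 shared 75.6% of aligned coding bases, with at least 3 differences in each such window.
Pdha2: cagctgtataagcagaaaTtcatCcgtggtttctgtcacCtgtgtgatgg
Pdha1: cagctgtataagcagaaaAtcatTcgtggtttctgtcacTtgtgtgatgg

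Gapdhs at chr7:30729779-30744791, which has introns, and Gapdh at chr6:125161852-125166467 shared 68.8% of aligned coding bases, with at least 5 differences in each window.
Gapdhs: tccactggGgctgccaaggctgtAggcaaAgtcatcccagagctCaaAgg
Gapdh: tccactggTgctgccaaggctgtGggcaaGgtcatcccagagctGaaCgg

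The aldolase retrogenes were closer to their parent. Aldoart2 at chr12:55565205-55566896 shared 91.6% of aligned coding bases with Aldoa at chr7:126795234-126800994, with a window that differed at 1 base.
Aldoart2: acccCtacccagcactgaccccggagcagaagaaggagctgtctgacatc
Aldoa: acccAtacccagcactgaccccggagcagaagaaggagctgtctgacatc

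Aldoart1 at chr4:72850583-72852634 shared 93.9% with Aldoa, and its longest identical run was 86 bases. A read inside this run could have come from either gene, and how the authors' counting assigned such reads is not given in the sources used here. Over the longest coding transcript of each gene, 5.79% of the 50-base words of Aldoart1 also occurred in another gene, against 0.31% for Aldoart2, 4.55% for Gapdhs, 4.64% for Eno4 and 0.0% for Pgk2 and Pdha2. Some of the other enzymes shared more, at 82.49% for Gapdh, 72.19% for Eno1, 67.96% for Pgk1, 41.48% for Pgam1, 34.41% for Pkm, 30.26% for Pdhb and 25.26% for Gpi1, while others, such as Hk2, Pgam2 and Fbp1, were at 0.0%. The counts of those that shared much are therefore uncertain as levels. Coding bases of Eno4 and Eno1 could not be aligned over a window of this length.

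The 6 libraries held between 16674678 and 19742726 counted reads. Of the 40 genes, 37 had enough reads to be tested with edgeR's quasi-likelihood test, in which p-values were adjusted over all 14640 genes tested (Benjamini-Hochberg). Between genotypes 6649 genes, or 45.4%, passed an adjusted p of 0.05, with 3634 (24.8%) higher and 3015 (20.6%) lower in MLX KO. With library size as the sole scaling in place of TMM factors, the log2 fold change of the median gene moved up by 0.13 and the split became 5343 higher and 1268 lower, or 80.8% of the called genes higher in place of 54.7%. The whole-gene count of Mlx, at 6.13 ± 0.611 CPM (reads per 1000000 reads of the scaled library, SD, n = 3) in WT and 5.43 ± 0.591 in MLX KO, did not separate the genotypes (log2 fold change −0.18, SE 0.14, adjusted p = 0.326). It includes reads from exons outside the deletion and is no check of the label. No 2 libraries of a genotype agreed within sampling noise. The library of KO replicate 1 stood apart from the other MLX KO libraries, with a chi-square per degree of freedom of 8.26 and 8.25 against them, beside 2.73 between those and 2.99 to 4.27 among WT libraries. Without it, 7395 genes passed the test.

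Among the 37 tested genes, 10 rose and 15 fell in MLX KO, and 12 did not pass the test. The share that fell (15 of 37) can be read against 20.6% of all genes, and the share that rose (10 of 37) against 24.8%. Of the 6 germ-cell isozymes, 5 fell (Pgk2, Gapdhs, Aldoart1, Aldoart2 and Pdha2) and Eno4 did not pass the test. Their median log2 fold change was −0.37, beside −0.03 for the other 31 tested genes and 0.03 for all genes. Those 31 divided into 10 that rose, 10 that fell and 11 that did not pass. Library size alone gave 15 genes higher and 10 lower, with 4 germ-cell isozymes lower. Without KO replicate 1, 9 genes were higher and 15 lower, among them 5 germ-cell isozymes. In whole testis, fewer cells of a type and less RNA per cell cannot be told apart.

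**Figure D1:**
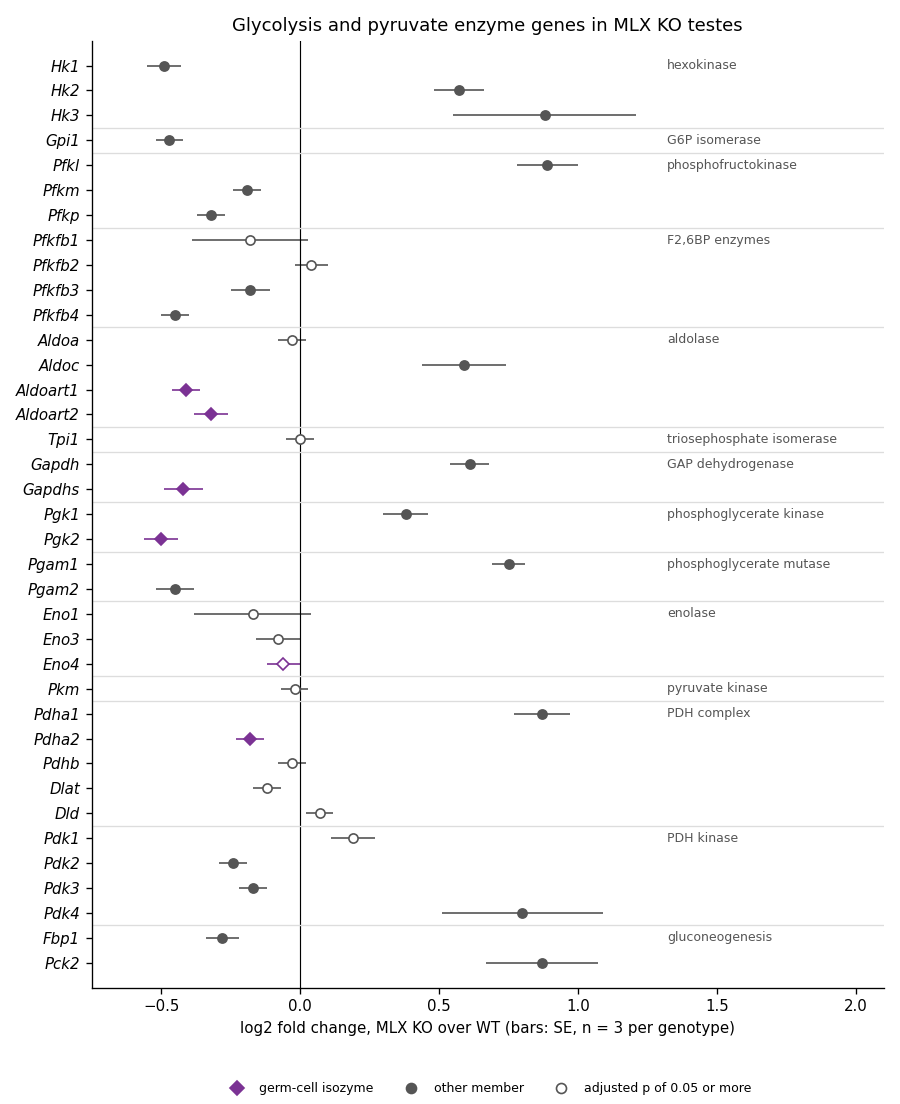
Log2 fold change of MLX KO over WT (horizontal axis, bars show the SE, n = 3 libraries per genotype) for the 37 tested genes, in order of enzyme step. Purple diamonds are germ-cell isozymes, grey circles the other genes, and open symbols did not pass an adjusted p of 0.05. No purple symbol lies to the right of 0, and Gapdh, Pgk1 and Pdha1, the counterparts of 3 of the isozymes, lie to the right.

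Phosphoglycerate kinase makes the first ATP of glycolysis. Pgk2, the germ-cell form, stood at 1141, 1155 and 1126 CPM in the WT libraries and at 865, 759.6 and 791 CPM in the MLX KO libraries. All MLX KO libraries were below all WT libraries, with a log2 fold change of −0.50 (SE 0.06, adjusted p = 6.46e-05). Pgk1, the form used by most other cells, was at 23.0, 21.0 and 24.5 CPM in WT and 27.4, 30.4 and 31.3 CPM in MLX KO. It rose by 0.38 on the log2 scale (SE 0.08, adjusted p = 0.00345), so the pair moved in opposite directions and neither gene's libraries overlapped between genotypes. Per kb of transcript, Pgk2 took 98.2% ± 0.151 (SD, n = 3) of the level of this step in WT and 96.8% ± 0.392 in MLX KO. These shares are uncertain, since 67.96% of the 50-base words of Pgk1 also occurred in another gene.

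Glyceraldehyde-3-phosphate dehydrogenase is the step before it, and Gapdhs codes for the form that is anchored in the sperm tail. Gapdhs counted 1632, 1698 and 1747 CPM in WT and 1393, 1243 and 1157 CPM in MLX KO, again without overlap (log2 fold change −0.42, SE 0.07, adjusted p = 0.000602). Gapdh, often used as a reference gene because most cells express it, was at 48.7, 55.3 and 53.3 CPM in WT and at 79.3, 85.8 and 75.3 CPM in MLX KO. It rose by 0.61 on the log2 scale (SE 0.07, adjusted p = 4.57e-05). The share of Gapdh in this step, per kb, went from 3.08% ± 0.135 in WT to 6.13% ± 0.561 in MLX KO, and with all annotated exons joined as length from 1.19% ± 0.0533 to 2.42% ± 0.230. These shares are uncertain, since 82.49% of the 50-base words of Gapdh also occurred in another gene.

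The alpha subunit of the pyruvate dehydrogenase E1 enzyme carries out the step that commits pyruvate to oxidation. Pdha1, on the X chromosome, was at 6.70, 6.80 and 6.82 CPM in WT and at 11.6, 13.4 and 12.3 CPM in MLX KO. It rose by 0.87 on the log2 scale (SE 0.10, adjusted p = 9.65e-05), and 16.93% of its 50-base words also occurred in another gene. Pdha2, its autosomal germ-cell copy, was at 203, 209.5 and 196 CPM in WT and 189.8, 170.5 and 177 CPM in MLX KO. The genotypes of Pdha2 did not overlap, but the gap was small (log2 fold change −0.18, SE 0.05, adjusted p = 0.0177). The call of Pdha2 was lost when single libraries were left out (adjusted p = 0.0793 without WT replicate 2, 0.0934 without KO replicate 2 and 0.0673 without KO replicate 3) and with library size alone (adjusted p = 0.455).

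Aldolase cleaves the 6-carbon sugar, and in mouse sperm the retrogenes Aldoart1 and Aldoart2 add to the Aldoa form. Aldoart1 was at 152, 163 and 161 CPM in WT and 117, 122 and 119 CPM in MLX KO (log2 fold change −0.41, SE 0.05, adjusted p = 7.89e-05). Aldoart2 was at 445, 459.8 and 469 CPM in WT and 392, 364 and 343 CPM in MLX KO (log2 fold change −0.32, SE 0.06, adjusted p = 0.000973). Neither overlapped between genotypes. Aldoa, at 385 ± 15.8 CPM (SD, n = 3) in WT and 377 ± 13.1 CPM in MLX KO, did not pass the test (log2 fold change −0.03, adjusted p = 0.667), although with library size alone it was higher (0.11, adjusted p = 0.0462). Aldoc, a form known from brain, was low and rose from 7.65 ± 1.27 to 11.5 ± 1.90 CPM (log2 fold change 0.59, SE 0.15, adjusted p = 0.00877). The order of levels per kb within this step rested on the transcript length used. With the longest coding transcript, Aldoart2 took 45.7% ± 0.323 and Aldoa 41.1% ± 0.376 of the step in WT, and with all annotated exons joined the values were 60.1% ± 0.322 and 22.6% ± 0.269.

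Enolase stood apart from these steps, in that none of its 3 tested genes passed the test. Eno4, an enolase needed for the sperm tail, was at 74.5, 80.5 and 71.0 CPM in WT and 73.7, 71.8 and 71.2 CPM in MLX KO, with overlapping genotypes (log2 fold change −0.06, SE 0.06, adjusted p = 0.396). Eno3, the muscle form, was at 47.8 ± 4.55 and 45.4 ± 2.88 CPM (log2 fold change −0.08, adjusted p = 0.441). Eno1, the form of most tissues, was at 7.38 ± 1.76 and 6.54 ± 1.78 CPM (log2 fold change −0.17, adjusted p = 0.537). Reads of Eno1 may have been counted under its copy Eno1b, which held 70.53% of its 50-base words and was at 75.3 ± 6.24 CPM in WT and 50.4 ± 10.8 CPM in MLX KO (log2 fold change −0.58, SE 0.12, adjusted p = 0.00295). Eno1 and Eno1b together were at 82.7 ± 7.34 CPM in WT and 57.0 ± 12.5 CPM in MLX KO, so no value for Eno1 by itself is firm. Eno2, the neuronal form, had between 4 and 9 reads per library and was not tested.

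**Figure D2:**
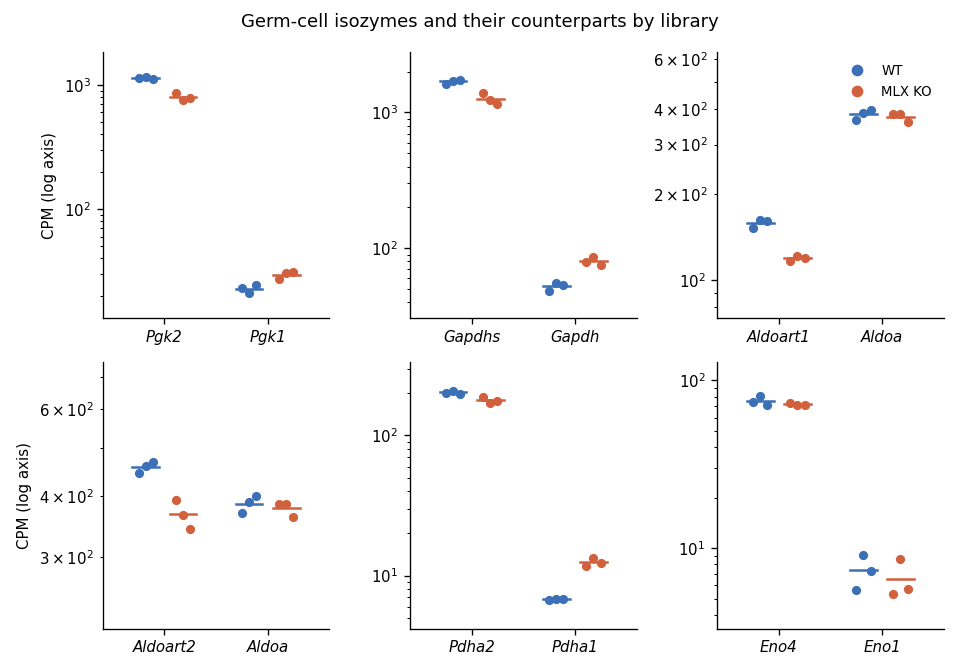
Read counts scaled to library size (CPM, log axis) of each germ-cell isozyme and its counterpart in the 3 WT (blue) and 3 MLX KO (orange) libraries. Points are libraries and lines group means. Pgk2, Gapdhs and Pdha2 are lower in each MLX KO library than in each WT library while Pgk1, Gapdh and Pdha1 are higher. Eno4, Eno1 and Aldoa overlap.

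The ratio of the counts of the 2 genes of a pair does not depend on how libraries are scaled, and it was compared between genotypes for the 6 pairs. The Pgk2 to Pgk1 ratio was 49.7, 54.9 and 46.0 in WT, against 31.6, 25.0 and 25.3 in MLX KO, a fall in the mean log2 ratio of 1.84-fold. The Gapdhs to Gapdh ratio was 33.5, 30.7 and 32.8 in WT, against 17.6, 14.5 and 15.4 in MLX KO, a 2.05-fold fall. The Pdha2 to Pdha1 ratio was 30.3, 30.8 and 28.8 in WT, against 16.4, 12.7 and 14.4 in MLX KO, a 2.07-fold fall. In these 3 pairs the isozyme fell and the counterpart rose. The size of the ratios to Pgk1 and Gapdh is uncertain, since most of their 50-base words also occurred in another gene.

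The ratios to Aldoa moved less. Aldoa was no minor form of its step, at 41.1% of the level per kb in WT (longest transcript), against 1.75% for Pgk1 and 3.08% for Gapdh. Its ratios are therefore not like theirs, and which cells expressed Aldoa was not tested. Aldoart1 to Aldoa fell 1.30-fold, from a mean log2 ratio of −1.28 ± 0.03 (SD, n = 3) to −1.66 ± 0.06, and Aldoart2 to Aldoa fell 1.23-fold, from 0.25 ± 0.02 to −0.04 ± 0.06. In all 5 of these pairs each of the 3 MLX KO libraries was below each WT library, and the ratio was lower in 3 of 3 littermate pairs. The two-sided exact permutation test over the 6 libraries gave p = 0.1 for each of the 5, the smallest that 3 against 3 allows, and 0.12 after adjustment over the 6 pairs. The exact sign-flip permutation test within littermate pairs gave p = 0.25 for each of the 5, also the smallest it allows. The Eno4 to Eno1 ratio overlapped between genotypes (mean log2 ratio 3.37 ± 0.31 in WT and 3.49 ± 0.38 in MLX KO, exact permutation p = 0.9), and against Eno1 and Eno1b together it was higher in MLX KO by 0.50 on the log2 scale (exact permutation p = 0.1).

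Among genes that are not germ-cell isozymes, the form with the highest level per kb also fell in several steps. Hexokinase traps glucose in the cell, and Hk1 is also made as a germ-cell transcript, which this table does not separate. Hk1 was at 2371, 2518 and 2500 CPM in WT and 1886, 1683 and 1682 CPM in MLX KO (log2 fold change −0.49, SE 0.06, adjusted p = 0.000105). Hk2, the form of muscle and of dividing cells, was at 29.4, 28.3 and 35.4 CPM in WT and 41.2, 47.0 and 49.8 CPM in MLX KO (log2 fold change 0.57, SE 0.09, adjusted p = 0.000722). Hk1 made up 99.0% ± 0.104 of the hexokinase level per kb in WT and 97.9% ± 0.310 in MLX KO. With all annotated exons joined as length the values were 98.2% ± 0.189 and 96.2% ± 0.552.

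Hk3, known from white blood cells, had between 9 and 34 reads per library. It rose by 0.88 on the log2 scale (SE 0.33, adjusted p = 0.0456). The call of Hk3 was lost with DESeq2 (adjusted p = 0.147, and 0.241 with the littermate pair as a block), with no filter on low counts (0.0519), and without WT replicate 2 (0.12), WT replicate 3 (0.159), KO replicate 1 (0.0611) or KO replicate 2 (0.166).

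Gpi1, which turns glucose 6-phosphate into fructose 6-phosphate, was at 684, 732 and 743 CPM in WT and 543, 520.2 and 497 CPM in MLX KO (log2 fold change −0.47, SE 0.05, adjusted p = 7.45e-05). Phosphofructokinase, the main control point of glycolysis, has a liver, a muscle and a platelet form, and they did not move together. Pfkl, the liver form, rose from 17.9, 19.8 and 23.5 CPM to 32.4, 41.7 and 39.5 CPM (log2 fold change 0.89, SE 0.11, adjusted p = 0.000142). Pfkm, the muscle form, fell from 198 ± 9.64 to 173 ± 2.40 CPM (log2 fold change −0.19, adjusted p = 0.00907, lost with library size alone at adjusted p = 0.353). Pfkp, the platelet form, fell from 190.4 ± 2.07 to 152 ± 8.59 CPM (log2 fold change −0.32, adjusted p = 0.000573). Pfkl made up 4.55% ± 0.486 of the step per kb in WT and 9.49% ± 1.34 in MLX KO.

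The Pfkfb enzymes make and break fructose 2,6-bisphosphate, which activates phosphofructokinase. Pfkfb4, a form that is abundant in testis, fell from 71.5, 72.4 and 74.2 CPM to 50.9, 54.4 and 54.5 CPM (log2 fold change −0.45, SE 0.05, adjusted p = 7.1e-05). Pfkfb3 was at 74.4 ± 2.15 CPM in WT and 65.5 ± 5.98 CPM in MLX KO (log2 fold change −0.18, SE 0.07, adjusted p = 0.0396). The call of Pfkfb3 was lost with library size alone (adjusted p = 0.555), with the littermate block in DESeq2 (0.0666), and without WT replicate 1 (0.101), WT replicate 2 (0.0591), WT replicate 3 (0.102), KO replicate 2 (0.0933) or KO replicate 3 (0.179, with a log2 fold change of −0.11). Pfkfb2, the heart form, at 57.9 ± 2.72 and 59.4 ± 4.24 CPM, and Pfkfb1, the liver form, at 2.82 ± 0.558 and 2.49 ± 0.354 CPM, did not pass the test (adjusted p = 0.662 and 0.516).

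Phosphoglycerate mutase showed the same opposed pattern as phosphoglycerate kinase, although neither of its genes is counted here as a germ-cell isozyme. Pgam2, the form of muscle and sperm, was at 669, 705 and 680.2 CPM in WT and 566, 473 and 468 CPM in MLX KO (log2 fold change −0.45, SE 0.07, adjusted p = 0.000526). Pgam1, the widely expressed form, was at 61.8, 65.4 and 65.0 CPM in WT and 98.7, 114 and 109 CPM in MLX KO (log2 fold change 0.75, SE 0.06, adjusted p = 9.02e-06). The share of Pgam1 in this step per kb went from 4.24% ± 0.0734 to 9.28% ± 1.44. It is uncertain as a level, since 41.48% of the 50-base words of Pgam1 also occurred in another gene.

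Triosephosphate isomerase and pyruvate kinase each have 1 main gene here, and neither passed the test. Tpi1 was at 432 ± 18.1 and 431 ± 15.6 CPM (adjusted p = 0.953), and Pkm at 435 ± 12.1 and 429 ± 2.97 CPM (adjusted p = 0.729). With library size alone both passed as higher, Tpi1 by 0.14 (adjusted p = 0.0121) and Pkm by 0.12 (adjusted p = 0.0211), close to the 0.13 by which that scaling moved the median gene. Pklr, the liver and red cell form, had at most 2 reads in a library and was not tested.

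**Figure D3:**
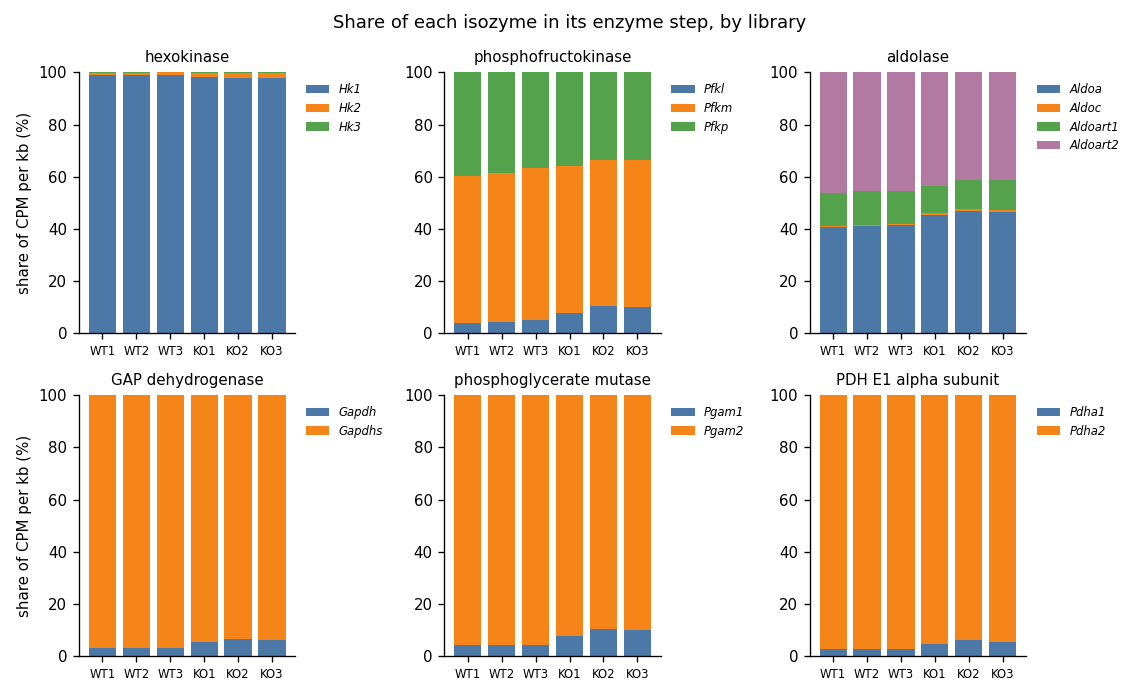
Share of each isozyme in the summed CPM per kb of its enzyme step (vertical axis, percent), for each WT and MLX KO library. The shares of Gapdh, Pgam1, Pdha1 and Pfkl are higher in each MLX KO library than in each WT library, and Gapdhs, Pgam2 and Pdha2 still hold most of their steps in each library. The levels of Gapdh and Pgam1 are uncertain, since much of their sequence also occurs in other genes.

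Pdhb, Dlat and Dld, the other subunits of the pyruvate dehydrogenase complex among the 40 genes, did not pass the test. Pdhb, the beta subunit of E1, was at 166 ± 6.51 CPM in WT and 162 ± 2.75 CPM in MLX KO (log2 fold change −0.03, adjusted p = 0.583). Dlat, the E2 subunit that makes acetyl-CoA, was at 139 ± 4.61 and 128 ± 1.93 CPM (log2 fold change −0.12, adjusted p = 0.0595), and passed with DESeq2 (adjusted p = 0.048) and with the size factors of DESeq2 in edgeR (0.031). Dld, the E3 subunit shared with other complexes, was at 106 ± 4.38 and 112 ± 2.81 CPM (log2 fold change 0.07, adjusted p = 0.245), and passed with library size alone (adjusted p = 0.00485).

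The 4 pyruvate dehydrogenase kinases switch the complex off. Of these, Pdk2 and Pdk3 fell, Pdk4 rose with few reads, and Pdk1 did not pass the test. Pdk2, the kinase with the highest level per kb, fell from 204, 228 and 218 CPM to 190.4, 177 and 182 CPM (log2 fold change −0.24, SE 0.05, adjusted p = 0.00406, lost with library size alone at adjusted p = 0.0778). Pdk3, on the X chromosome, fell from 98.2, 100.3 and 94.5 CPM to 84.9, 91.1 and 84.4 CPM (log2 fold change −0.17, SE 0.05, adjusted p = 0.0178). Its call was lost without WT replicate 1 (adjusted p = 0.0535), WT replicate 2 (0.0749) or KO replicate 3 (0.0782) and with library size alone (0.662).

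Pdk4, the kinase known to respond to fasting, had between 21 and 87 reads per library, at 1.11, 2.35 and 2.71 CPM in WT and 4.49, 3.15 and 3.02 CPM in MLX KO. It rose by 0.80 on the log2 scale (SE 0.29, adjusted p = 0.0420). The call of Pdk4 was lost with DESeq2 (adjusted p = 0.0598, and 0.136 with the littermate block), and without WT replicate 1 (0.133, with a log2 fold change of 0.49), WT replicate 2 (0.065), KO replicate 1 (0.123) or KO replicate 2 (0.0557). Pdk1, a target of the hypoxia response, was at 19.6 ± 0.744 CPM in WT and 22.4 ± 1.41 CPM in MLX KO (log2 fold change 0.19, adjusted p = 0.0677), and passed without KO replicate 1 (adjusted p = 0.0187) and with library size alone (0.0106).

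On the route back to glucose, Fbp1, which removes a phosphate from fructose 1,6-bisphosphate, fell from 529.8, 583 and 589 CPM to 487, 460.3 and 456 CPM (log2 fold change −0.28, SE 0.06, adjusted p = 0.00203). Pck2, the mitochondrial enzyme that makes phosphoenolpyruvate, rose from 2.90, 4.07 and 4.17 CPM to 5.16, 7.63 and 7.52 CPM (log2 fold change 0.87, SE 0.20, adjusted p = 0.00409). Pck1, its cytosolic counterpart, had at most 8 reads in a library and was not tested. The mean WT levels of the 10 genes that rose ran from 0.252 (Hk3) to 36.9 CPM per kb (Gapdh), and those of the 15 that fell from 15.5 (Pfkfb3) to 1161 CPM per kb (Gapdhs).

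By level per kb, summed over the genes of a step, glyceraldehyde-3-phosphate dehydrogenase was the highest step in WT at 1198 ± 41.5 CPM per kb and went to 924 ± 83.2 in MLX KO. Phosphoglycerate mutase followed at 852 ± 23.0 and 659 ± 61.7, phosphoglycerate kinase at 714 ± 8.03 and 512 ± 32.4, aldolase at 605 ± 19.5 and 527 ± 21.6, and hexokinase at 582 ± 18.8 and 418 ± 26.7. Aldolase and hexokinase in WT are neighbours in this order within about their spread. All these sums used the longest coding transcript as length. With all annotated exons joined, Hk1 measures 8532 bases in place of 4278 and Aldoa 3710 in place of 1549. The order of steps can therefore depend on the length used, and it was not computed with joined exons. Enolase was far lower, at 63.7 ± 2.63 and 60.5 ± 1.98 CPM per kb. These sums were not tested, and Eno1b is not in them.

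Of the 37 tested genes, 27 had libraries that did not overlap between genotypes, beside 56.2% of all genes tested. The 4 X-linked genes did not share a direction, since Pgk1 and Pdha1 rose, Pdk3 fell and Pfkfb1 did not pass. The 4 retrogenes of 1 exon (Pgk2, Pdha2, Aldoart1 and Aldoart2) all fell, beside 20.6% of all genes, although Pdha2 lost its call in some settings. Of the germ-cell isozymes with introns, Gapdhs fell and Eno4 did not pass the test.

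Because MLX binds E-boxes with its partners, the promoter windows of the genes were searched for the E-box CACGTG, whose letters read the same on both strands. RefSeq windows of GRCm38.p6, from 250 bases before to 50 after the start, were at hand for 39 of the 40 genes (not for Aldoart1). The motif was in 4 of them, or 10.256%, beside 8.093% of 27025 gene windows (2187), and in none of the 5 germ-cell isozymes with a window. The stretches of 60 bases upstream of a start that hold it are shown, on the strand of the gene, with the E-box in capitals. Those of Pfkfb2 and Pfkfb3 lie inside the gene (chr1:130689043-130729253 and chr2:11471430-11554071). Their starts are thus not the outermost starts of these genes, whose reads were counted per whole gene.
Pdk2, chr11:95041465-95041524, minus strand: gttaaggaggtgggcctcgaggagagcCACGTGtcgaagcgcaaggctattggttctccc
Pfkfb2, chr1:130715822-130715881, minus strand: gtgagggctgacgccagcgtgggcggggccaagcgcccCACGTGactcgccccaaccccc
Pfkfb3, chr2:11502111-11502170, minus strand: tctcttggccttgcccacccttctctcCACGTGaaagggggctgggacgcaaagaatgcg
Pfkm, chr15:98092426-98092485, plus strand: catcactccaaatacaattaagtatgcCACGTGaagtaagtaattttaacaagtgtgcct

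Of these 4 genes, Pdk2, Pfkm and Pfkfb3 fell slightly and Pfkfb2 did not pass the test, with the values given above. A match is a description of letters in a window and not a site of binding, and ChIP-Seq was not used here.

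Most markers of spermatocytes and spermatids fell in MLX KO as well. Of 12 elongating spermatid markers all 12 fell (median log2 fold change −0.51, summed level 24655 to 25706 CPM in WT and 14776 to 17943 in MLX KO), and of 10 round spermatid markers all 10 fell (median −0.26, 2301 to 2372 and 1849 to 1939 CPM). Of 12 spermatocyte markers 9 fell and none rose (median −0.16, 2284 to 2344 and 1982 to 2087 CPM). Of 11 spermatogonial markers 2 rose and 1 fell (median 0.08, 174 to 182 and 188 to 203 CPM). Over all genes 24.8% rose and 20.6% fell, so these spermatogonial counts are not above the shares of all genes. The fall of the germ-cell isozymes, at a median of −0.37, lay between those of the round and the elongating spermatid markers.

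In the other cells of the testis, all 12 Sertoli cell markers rose (median 0.78, 966 to 1018 CPM in WT and 1487 to 1799 in MLX KO), as did all 9 Leydig cell markers (median 1.07, 901 to 924 and 1909 to 2527 CPM). Of 10 macrophage markers 9 were in the table, of which 8 rose and 1 fell (median 1.28, with a summed level of 426 to 446 CPM in WT and 387 to 426 in MLX KO). Of 7 endothelial markers 2 rose (median 0.55, 36.5 to 45.6 and 52.6 to 59.1 CPM), a share near the 24.8% of all genes that rose. Of 6 peritubular myoid cell markers 5 rose (median 0.59, 84.8 to 98.2 and 136 to 152 CPM). The 10 genes of this pathway that rose had log2 fold changes from 0.38 (Pgk1) to 0.89 (Pfkl). No marker of these lists was at 0 reads in any library, and the part of cell makeup in the results was not tested.

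Each germ-cell isozyme was then set against the mean log2 level of the marker lists in the same library, which takes out the scaling of libraries, with no test. Against round spermatid markers, Pgk2 was at 2.81 ± 0.02 (SD, n = 3) in WT and 2.56 ± 0.07 in MLX KO, Gapdhs at 3.37 ± 0.04 and 3.20 ± 0.12, and Aldoart1 at −0.04 ± 0.03 and −0.20 ± 0.05, and in none of these did the genotypes overlap. Aldoart2 (1.49 ± 0.03 and 1.42 ± 0.08) and Pdha2 (0.32 ± 0.04 and 0.39 ± 0.06) overlapped. Eno4 was higher, at −1.11 ± 0.08 in WT and −0.91 ± 0.01 in MLX KO.

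Against spermatocyte markers the direction was the same, with Pgk2 lower by 0.31, Gapdhs by 0.23, Aldoart1 by 0.22 and Aldoart2 by 0.13, Pdha2 at a difference of 0.01 and Eno4 higher by 0.13. Against elongating spermatid markers all 6 isozymes were higher in MLX KO, so the sign turned for Pgk2, Gapdhs, Aldoart1 and Aldoart2. The differences were 0.08 for Pgk2, 0.16 for Gapdhs, 0.18 for Aldoart1, 0.27 for Aldoart2, 0.41 for Pdha2 and 0.53 for Eno4. In this last comparison Aldoart1 overlapped between genotypes and the other 5 did not. For Pgk2 this was close to a tie, since its highest WT library and its lowest MLX KO library both rounded to −0.34. When 1 library was left out, the difference of Pgk2 lay between 0.04 (without KO replicate 3) and 0.11 (without KO replicate 2). Aldoart2 overlapped against spermatocyte markers too, and with the median of the round spermatid markers in place of their mean it did not overlap (a difference of −0.15). This turn of sign was not particular to the isozymes. Hk1, Gpi1, Pgam2 and Pfkfb4 differed by −0.24, −0.21, −0.20 and −0.19 from round spermatid markers, without overlap. From elongating spermatid markers they differed by 0.09, 0.12, 0.14 and 0.14. Pfkp (−0.07) and Fbp1 (−0.02) overlapped against round spermatid markers.

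**Figure D4:**
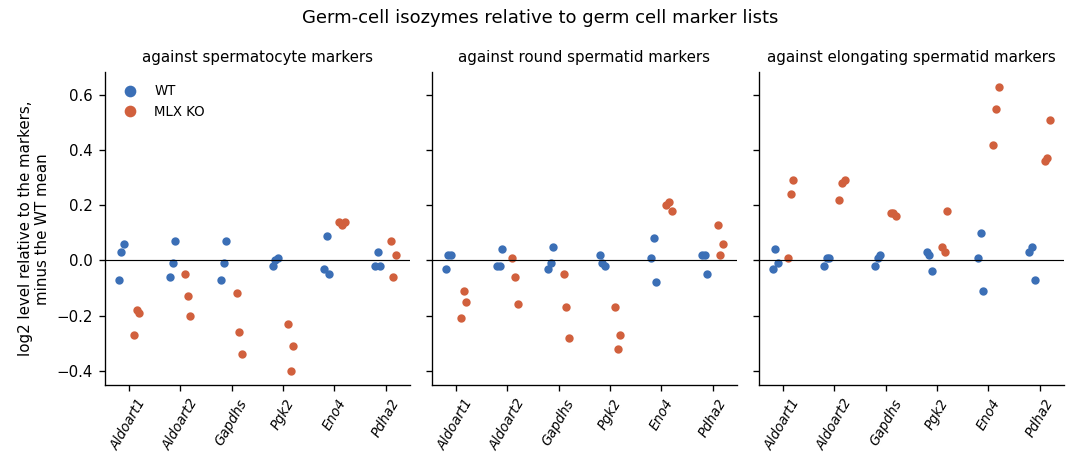
Log2 level of each germ-cell isozyme relative to the mean log2 level of spermatocyte, round spermatid and elongating spermatid markers in the same library, with the WT mean set to 0. Blue points are WT and orange points MLX KO libraries. The MLX KO points of Pgk2 and Gapdhs lie below 0 in the left and middle panels and above 0 in the right panel, and those of Eno4 lie above 0 in all 3.

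The neighbouring genes of the pathway that are not among the 40 moved both ways. Of 21 listed, 16 were tested, and their median log2 fold change was 0.15. Of the 16, 6 rose, 4 fell and 6 did not pass, beside 24.8% of all genes higher and 20.6% lower. Those that rose the most were Fbp2, the muscle fructose bisphosphatase, from 0.331 ± 0.262 to 1.21 ± 0.417 CPM (SD, n = 3, log2 fold change 1.80, adjusted p = 0.00989), Pgm1 (1.39, adjusted p = 0.00297) and Pgm2 (0.55, adjusted p = 0.00387), which code for phosphoglucomutases, and Pdp2, a phosphatase that switches the pyruvate dehydrogenase complex on (1.09, adjusted p = 0.00163). Those that fell were G6pc3, a glucose-6-phosphatase, from 168 ± 6.94 to 132 ± 8.22 CPM (log2 fold change −0.35, adjusted p = 0.000627), Pdhx, the E3-binding subunit of the complex (−0.24, adjusted p = 0.00412), Bpgm, which makes 2,3-bisphosphoglycerate (−0.22, adjusted p = 0.0108), and Mpc2, a subunit of the mitochondrial pyruvate carrier (−0.22, adjusted p = 0.00366). The other subunit of the carrier, Mpc1, did not pass the test (19.0 ± 2.21 CPM in WT and 21.5 ± 1.53 CPM in MLX KO, adjusted p = 0.153). Some of these rises rest on few reads. Fbp2 had 12, 3 and 3 reads in WT and 30, 24 and 14 in MLX KO. Pgm1 had 20, 10 and 12 against 30, 41 and 47, and Pdp2 had 42, 25 and 40 against 70, 75 and 99. Their calls in the other settings are not given here.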

How the data were processed

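RNA-seq was performed on whole testes of 3 WT and 3 MLX KO mice aged 7 months. Counts are whole reads per gene symbol and library, deposited by the authors after alignment of 50-base paired-end reads to mm10 with TopHat, per the labels and methods. The counting tool, its annotation and its use of strand are not given in the sources used here. The table also holds the authors' own comparison (mean, log2 fold change, its standard error, test statistic and p-values), which was not used. Of 17933 rows, 2 repeated another and were used once.

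The 40 genes, the marker lists and the other pathway genes were chosen with earlier results of these data known. All 40 are named, and other pathway genes are named up to 4 in each direction by size of change. Counts were tested with edgeR 4.0.16 in R 4.3.3 (genotype as the sole term, TMM factors, filterByExpr, quasi-likelihood test, two-sided), with adjusted p under 0.05 as the threshold. On simulated counts with 200 changed genes both edgeR and DESeq2 1.42.0 were tested before use. Alternatives were DESeq2, other scalings and filters, the replicate block and leaving out each library. CPM are counts per 1000000 of TMM-scaled library size. Levels per kb used the longest coding GENCODE transcript. Ratios used log2 of counts with 0.5 added to each.

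The replicate numbers pair the samples, since the titles call them paired and the paper gives age-matched littermates. Deviations from the group means correlated at 0.145, 0.0363 and 0.121 for the same number, and between −0.123 and 0.033 for different numbers. Sequences are from GENCODE (GRCm38) and RefSeq (GRCm38.p6). Depth was between 16674678 and 19742726 reads, and a count of 0 in a library allows up to 3 reads.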

Additional observations from a re-analysis of the deposited data

How the results depend on the processing

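Of the 25 genes that passed the test, 18 kept their direction and passed in each of the 14 other settings, and 7 (Hk3, Pfkm, Pfkfb3, Pdha2, Pdk2, Pdk3 and Pdk4) lost the call in at least 1. The replicate block in edgeR changed no call, with 10 genes higher and 15 lower, and 8 and 14 with the block in DESeq2, where the calls of Hk3, Pfkfb3 and Pdk4 were lost. Over all genes the block gave 6743 calls in edgeR and 4579 in DESeq2, against 6649. For the ratios, the mean of the within-pair differences equals the difference of means, and its replicate block test is the sign-flip test given above.

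Library size alone turned the sign of Aldoa (0.11), Tpi1 (0.14), Eno3 (0.06), Eno4 (0.08), Pkm (0.12), Pdhb (0.10) and Dlat (0.02), none of which passed the test before. All are under or near the 0.13 by which the median gene moved. It gave 1268 genes lower against 3015. Upper-quartile factors turned Tpi1 (0.0017). When 1 library was left out, the sign turned in at least 1 case for Pfkfb2 (log2 fold changes from −0.0038 to 0.10), Aldoa (−0.06 to 0.01), Tpi1 (−0.03 to 0.03), Eno1 (−0.40 to 0.01) and Eno3 (−0.12 to 0.0031), none of which passed the test. The Eno4 to Eno1 ratio lay between −0.03 and 0.34 when 1 library was left out, turning sign without WT replicate 2 (−0.0016) or KO replicate 1, and was 0.50 with Eno1b added, an alternative chosen after the data were seen. Leaving out 1 library kept the direction of the other 5 ratios.

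These alternatives, too, were chosen after the data were seen. With all exons joined as length, the change in share of a step, in percentage points, was −1.99 for Hk1 (−1.11 with the longest transcript), −2.63 for Aldoart2 (−3.75), −1.23 for Gapdhs (−3.05) and −2.14 for Pdha2 (−2.75). With the median of the markers in place of the mean, the difference from round spermatid markers was −0.24 for Aldoart1, −0.15 for Aldoart2, −0.33 for Pgk2, 0.11 for Eno4 and −0.01 for Pdha2, and that of Pdha2 from spermatocyte markers was −0.01. The latter lay between −0.02 and 0.05 when 1 library was left out. The cause of these shifts was not tested. With 3 libraries per genotype no exact test of 1 value could go under 0.1. Hk3 and Pdk4, with under 100 reads per library, are set by few reads, as are Fbp2, Pgm1 and Pdp2 among the neighbouring genes.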
